A study of Homo sapiens with 9 samples.

Results

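Of the 14943 genes in the count table, 9 that shape the actin cortex were examined: the p21-activated kinases PAK1, PAK2, PAK3 and PAK4, the adducins ADD1, ADD2 and ADD3, and the GTPases CDC42 and RAC1. PAK3 and ADD2 were included because they stood on the study's list of putative targets, which was drawn from these same libraries for genes that were lower with the mimic. Their changes are therefore given as a description, without a test. The other 7 genes are their paralogues and the GTPases upstream of the kinases, and were tested. All 9 genes were present in the table.

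Cells of the human neuroblastoma line SH-Sy5y were transfected once and harvested after 48 h for sequencing of polyadenylated RNA. Control cells (Ctrl.) received 40 pmol of a negative control oligonucleotide and no mimic, 10 nM cells received 20 pmol of that oligonucleotide with 20 pmol of miR-1229-3p mimic, and 20 nM cells received 40 pmol of mimic and none of the control oligonucleotide. Both mimic groups thus differ from Ctrl., and from each other, in the mimic and in the control oligonucleotide at once, and these cannot be told apart. Each group had 3 libraries, each of which may pool RNA from more than 1 well. Nothing in the sources used here says that the libraries came from separate cultures, so p-values measure the spread between these libraries, which may be technical.

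Each library held between 17.4 and 28.2 M estimated counts in all, and each of the 9 genes had at least 390.4 counts in every library. 20 nM replicate 3 stood apart: on the first principal component (30.4% of the variance) its score was 47.4, against -17.1 to 7.72 for the other 8 libraries. All 10 noradrenergic neuroblastoma markers examined were in the table, although TH, the rate-limiting enzyme of catecholamine synthesis, was near 0 (0.598, 0.521 and 0.154 CPM in Ctrl., 10 nM and 20 nM). At 20 nM 4 of the 10 were called lower and 0 higher (edgeR adjusted p under 0.05), against 6.08% and 7.80% of all genes. From Ctrl. to 20 nM the mean CPM of DBH went from 1510.3 to 1805 and that of CHGA from 547 to 724, while that of STMN2 went from 654 to 483. The summed CPM of these markers was 5480.2 to 5582 in Ctrl., 5772 to 6160.1 at 10 nM and 5450.2 to 6362 at 20 nM. Of 10 markers of other cell types, 6 (PTPRC, PECAM1, CDH5, GFAP, AQP4 and ALB) were not in the table. The other 4 summed to 48.9 to 80.0, 46.8 to 75.5 and 51.1 to 69.1 CPM in the 3 groups. The part of either list in the results below was not tested.

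Actin lies beneath the plasma membrane as a thin meshwork that sets cell shape and, in neurons, the form of growth cones and dendritic spines. CDC42 and RAC1 switch between a GDP-bound and a GTP-bound state. In the GTP-bound state they bind and activate the group I kinases PAK1, PAK2 and PAK3, which act through LIM kinase and cofilin on filament turnover. PAK4 is a group II kinase. PAK3 and ADD2 are enriched in neurons, while PAK2, ADD1, CDC42 and RAC1 are expressed in most cells. Adducins work as pairs, ADD1 with either ADD2 or ADD3, which cap the fast-growing ends of actin filaments and recruit spectrin to them. A microRNA lowers mRNAs whose 3′ untranslated region (UTR) can pair with its seed, the stretch from base 2 to base 8.

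The mature microRNA and the matches in its putative targets and in their relatives show which of the 9 genes carry the pairing letters. The seed of mature miR-1229-3p (RefSeq, GRCh38.p14, chromosome 5, minus strand, 179798278 to 179798300) is in capitals.
hsa-miR-1229-3p: cUCUCACCacugcccucccacag

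Matches were searched on the mRNA strand of the longest annotated 3′ UTR of each gene (GENCODE 44, GRCh38). The letters were GGTGAGAA for an 8-mer, GGTGAGA or GTGAGAA for a 7-mer and GTGAGA for a 6-mer, and a shorter match inside a longer one was not counted again. PAK3 (chromosome X, 110944285 to 111227361, plus strand) held 2 8-mers in a UTR of 6914 bases. ADD2 (chromosome 2, 70607618 to 70768225, minus strand) held 2 7-mers and 1 6-mer in 6641 bases. In the sequences below, each written 5′ to 3′ on the strand of its gene, capitals mark the match. The number after each gene is the position of the match from the stop codon.
PAK3, 2833, chrX:111223269-111223298: agtcagggaagGGTGAGAAgcacagtagag
PAK3, 4309, chrX:111224745-111224774: aagaaattttaGGTGAGAActttaataatg
ADD2, 2194, chr2:70661214-70661242: caaacgatgttGTGAGAAtggtgaacacg
ADD2, 5532, chr2:70657876-70657904: tgaggctcagtGTGAGAAagcactggcag

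Of the 7 relatives, 3 held a match of 7 or 8 letters. CDC42 (chromosome 1, 22052627 to 22101360, plus strand) held an 8-mer near the far end of a UTR of 9843 bases. PAK2 (chromosome 3, 196739857 to 196832647, plus strand) held 1 7-mer in 4242 bases, and ADD3 (chromosome 10, 109996368 to 110135565, plus strand) held 1 in 1947 bases.
CDC42, 8568, chr1:22100074-22100103: agggtttgtttGGTGAGAAagttgcacctt
PAK2, 1142, chr3:196829536-196829564: gctctgatacaGTGAGAAgagattatact
ADD3, 334, chr10:110133941-110133969: ccagtgagcaaGTGAGAAtttttatttct

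PAK1 (chromosome 11, 77322017 to 77474635, minus strand) held 2 6-mers and no longer match in a UTR of 1257 bases. PAK4 (chromosome 19, 39125770 to 39182816, plus strand) held 2 6-mers in the longest UTR and 0 in the UTR of its MANE Select transcript, the reference transcript chosen jointly by RefSeq and Ensembl. ADD1 (chromosome 4, 2843844 to 2930076, plus strand) and RAC1 (chromosome 7, 6374527 to 6403967, plus strand) held none. A 7-mer or 8-mer was present in the UTR of 22.6% of the 13775 genes with an annotated UTR, and an 8-mer in 4.6%. Long UTRs hold more: of genes whose UTR was within 1.2 times the length of that of PAK3, 63.0% (368 of 584) held a 7-mer or 8-mer, and for ADD2 it was 60.5% (382 of 631). Because PAK3 and ADD2 came from a list of putative targets, these shares do not test their matches. The matches of PAK3 were in 2 of its 9 annotated transcripts with a UTR, and those of ADD2 in 1 of 5. The 8-mer of CDC42 was in 1 of 18 transcripts, the 7-mer of PAK2 in 1 of 2 and the match of ADD3 in 3 of 3. All of these matches lay in the UTR of the MANE Select transcript of their gene. Gene-level counts do not tell which of these UTRs the cells used.

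**Figure D1:**
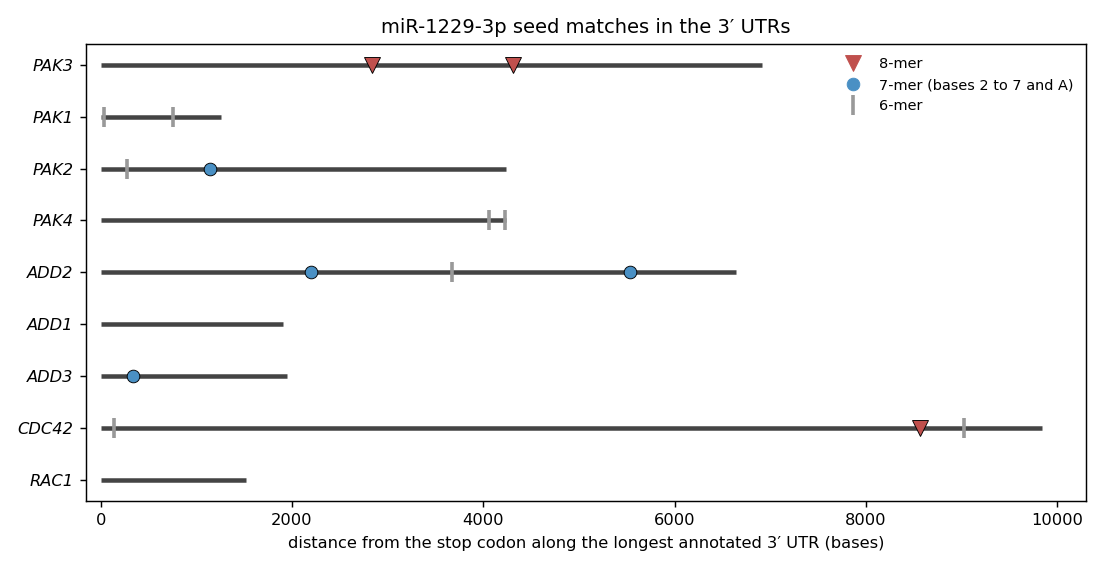
Matches to the miR-1229-3p seed along the longest annotated 3′ UTR of each gene; the x axis is the distance from the stop codon in bases, the grey line is the UTR and symbols are 8-mers, 7-mers and 6-mers. PAK3 and CDC42 hold 8-mers (2 and 1), ADD2 holds 2 7-mers, PAK2 and ADD3 hold 1 each, and ADD1 and RAC1 hold no match.

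The levels of the 9 genes differed widely in control cells when the CPM was divided by the length of the MANE Select transcript. RAC1 was highest at 166 ± 4.02 CPM per kb (mean ± SD, n = 3), followed by ADD1 at 64.8 ± 1.79, PAK4 at 38.6 ± 1.40, PAK2 at 26.8 ± 0.657 and ADD3 at 25 ± 0.806 CPM per kb. PAK1 at 11.2 ± 0.679 and ADD2 at 11 ± 0.197 CPM per kb overlapped in their libraries and could not be ordered. CDC42 at 6.44 ± 1.11 and PAK3 at 3.27 ± 0.389 CPM per kb were lowest. The other neighbours in this order did not overlap between their 3 control libraries. The long reference UTRs of CDC42, PAK3 and ADD2 enter this scale, so a cell that used shorter ones would have higher levels than given here. On this scale PAK3 was the least abundant of the group I kinases, at 7.91 ± 0.924% of their summed level per kb in Ctrl., and ADD2 the least abundant of the adducins, at 10.9 ± 0.214%, although before division by length ADD2 (103 ± 1.83 CPM) was close to ADD3 (110.3 ± 3.56 CPM).

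PAK3, the neuronal group I kinase, was at 29.5, 26.4 and 33.5 CPM without mimic, 22.7, 22.0 and 24.8 CPM at 10 nM, and 22.5, 22.8 and 24.1 CPM at 20 nM (replicates 1 to 3 in this order here and below). All 6 mimic libraries lay below all 3 controls, and the 10 nM and 20 nM libraries overlapped. The fitted log2 fold change was -0.38 (SE 0.085) at 10 nM and -0.42 (SE 0.097) at 20 nM, equal to changes of -23.4% and -25.3%. Between the concentrations it was -0.04 (SE 0.094), so the level at 20 nM was close to that at 10 nM. In these bulk RNA samples, fewer cells with a transcript and less of it in each cell cannot be told apart.

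ADD2, the neuronal and erythroid adducin, was at 104, 103 and 100.5 CPM without mimic, 88.7, 93.6 and 90.6 CPM at 10 nM, and 80.8, 82.5 and 81.3 CPM at 20 nM. No library of any group overlapped with those of another, and the 3 groups lay in the order of the mimic concentration. The fitted log2 fold change was -0.17 (SE 0.041) at 10 nM, -0.33 (SE 0.047) at 20 nM and -0.16 (SE 0.045) from 10 nM to 20 nM. The 20 nM level corresponds to a change of -20.5% from Ctrl., with an SD of 0.877 CPM across the 3 libraries. Unlike PAK3, the difference of ADD2 between 10 nM and 20 nM was about as large as that between Ctrl. and 10 nM. Whether the patterns of the 2 genes across concentrations differ was not tested.

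**Figure D2:**
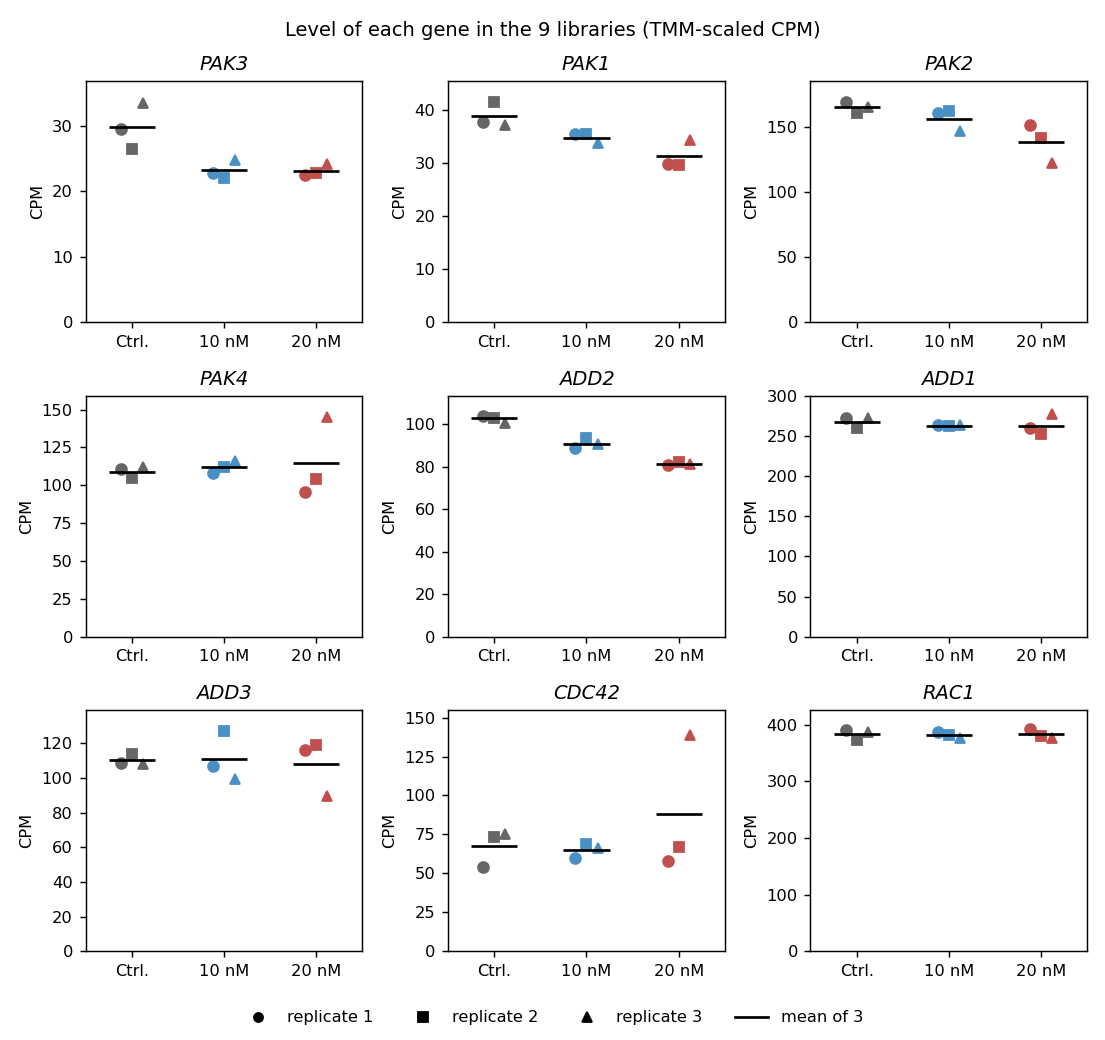
CPM of each gene (y axis, from 0) in the 3 libraries of Ctrl., 10 nM and 20 nM; symbols are replicates 1 to 3 and the black line is the group mean. PAK3, PAK1 and ADD2 lie below all controls at both concentrations, and 20 nM replicate 3 (triangle) is far above the rest for CDC42 (139 CPM) and PAK4 (145 CPM).

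Among the 7 relatives, PAK1 and PAK4 were called lower at 20 nM, and no call was made for PAK2, the adducins or the GTPases. At 10 nM 0 of the 7 were called (an adjusted p under 0.05 over 14943 genes, quasi-likelihood test of edgeR), as against 0.649% of all genes, 0.428% lower and 0.221% higher. 1 of the 7 had an unadjusted p under 0.05 by edgeR, against 13.9% of all genes, and DESeq2 called 0, against 1.46%. At 20 nM 2 of the 7, PAK1 and PAK4, were called, both lower, against a background of 13.9% of all genes called and 6.08% called lower. Between the concentrations 0 of 7 were called, against 2.79% of all genes, 0.883% lower and 1.91% higher. There 3 of the 7 had an unadjusted p under 0.05 by edgeR, against 14.9% of all genes. DESeq2 called 0 of the 7 there, against 3.16% of all genes. The median log2 fold change of the 7 was -0.04 at 10 nM and -0.15 at 20 nM, where that of all genes tested was 0.00047 and -0.00016. At 20 nM the median was -0.03 without the surrogate variable or with the replicate block in its place, -0.07 with the block beside it, -0.06 without 20 nM replicate 1 and -0.11 without 20 nM replicate 3. With the replicate number added as a block beside the surrogate variable, 1 relative (PAK1) was called at 10 nM, 3 (PAK1, PAK2 and PAK4) at 20 nM and 2 (PAK1 and PAK2) between the concentrations. The same block raised the genes called in all from 97 to 1566 (10.5%) at 10 nM and from 2074 to 4244 (28.4%) at 20 nM, and those between the concentrations to 1524 (10.2%).

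PAK1, a group I kinase of neurons, muscle and other tissues, was at 37.7, 41.5 and 37.2 CPM without mimic, 35.4, 35.4 and 33.7 CPM at 10 nM, and 29.8, 29.7 and 34.4 CPM at 20 nM. All 6 mimic libraries lay below all controls, although 20 nM replicate 3 lay within the range of the 10 nM libraries. Its log2 fold change at 20 nM was -0.38 (SE 0.072, edgeR adjusted p = 0.00402), a change of -23.2%. At 10 nM it was -0.17 (SE 0.062, edgeR adjusted p = 0.249), and with the replicate block beside the surrogate variable -0.18 (edgeR adjusted p = 0.0395). The fall of PAK1 at 20 nM passed the threshold under all 17 alternatives run, with adjusted p from 7.46e-05 to 0.0493, and without 20 nM replicate 3 the fold change was again -0.38 (edgeR adjusted p = 0.00156). From 10 nM to 20 nM it was -0.21 (SE 0.069, edgeR adjusted p = 0.14, and 0.0176 with the block).

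PAK2, the ubiquitous group I kinase, was at 169, 160.5 and 165 CPM without mimic, 160.5, 162 and 147 CPM at 10 nM, and 151, 141 and 122 CPM at 20 nM. All 3 20 nM libraries lay below all controls, while the 10 nM libraries overlapped with them. The log2 fold change at 20 nM was -0.15 (SE 0.049, edgeR adjusted p = 0.0644) and did not pass the threshold. It was -0.19 (edgeR adjusted p = 0.0019) with the replicate block beside the surrogate variable and -0.26 (edgeR adjusted p = 0.0335) with the block in its place. PAK2 also passed without 20 nM replicate 3 (-0.18, edgeR adjusted p = 0.0209), without 10 nM replicate 1 (0.0494) and without 10 nM replicate 3 (0.0486), 5 of 17 alternatives in all. At 10 nM its log2 fold change was -0.04 (SE 0.043, edgeR adjusted p = 0.681).

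PAK4, the group II kinase, was at 111, 105 and 112 CPM without mimic, 108, 112 and 116 CPM at 10 nM, and 95.9, 104 and 145 CPM at 20 nM. 20 nM replicates 1 and 2 lay below all controls and replicate 3 lay above every other library, 1.45-fold higher than the mean of replicates 1 and 2. The log2 fold change at 20 nM, -0.17 (SE 0.050, edgeR adjusted p = 0.0431), comes from a fit in which the surrogate variable carries the value 0.907 in that library, so the direction is that of replicates 1 and 2. Without the surrogate variable it was 0.08 (edgeR adjusted p = 0.743), the opposite direction, and with the replicate block in its place 0.06 (edgeR adjusted p = 0.734). Without 20 nM replicate 3 it was -0.13 (edgeR adjusted p = 0.0848), without 20 nM replicate 1 -0.06 (edgeR adjusted p = 0.559) and without 20 nM replicate 2 -0.17 (edgeR adjusted p = 0.146). The call was kept in 7 of 17 alternatives, and in 2 of the 9 that leave out a library. Besides those 3, it was lost without Ctrl. replicate 1, Ctrl. replicate 3, 10 nM replicate 1 or 10 nM replicate 2.

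ADD1, the ubiquitous adducin and partner of both others, was at 273, 259.9 and 272 CPM without mimic, 264, 262 and 264 CPM at 10 nM, and 259.5, 253 and 277 CPM at 20 nM. The groups overlapped. Its log2 fold change was -0.04 (edgeR adjusted p = 0.705) at 10 nM and -0.07 (edgeR adjusted p = 0.342) at 20 nM, with 2 SE on either side of the latter reaching from -0.16 to 0.02.

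ADD3, the third adducin, was at 109, 114 and 108 CPM without mimic, 107, 127 and 99.4 CPM at 10 nM, and 116, 119 and 89.4 CPM at 20 nM. Replicate 2 was highest and replicate 3 lowest in every group, and the groups overlapped. The log2 fold change was 0.05 (edgeR adjusted p = 0.796) at 10 nM and 0.11 (edgeR adjusted p = 0.42, 2 SE reaching from -0.05 to 0.28) at 20 nM, the only positive fitted values against Ctrl. beside RAC1 at 20 nM. At 20 nM the sign turned without the surrogate variable, to -0.03, and with the replicate block in its place, to -0.041.

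CDC42 was at 54.2, 73.5 and 75.2 CPM without mimic, 60.0, 69.0 and 66.2 CPM at 10 nM, and 58.0, 67.1 and 139 CPM at 20 nM. Replicate 1 was the lowest of each group, and 20 nM replicate 3 was 2.22-fold above the mean of replicates 1 and 2, a ratio exceeded by 54 of 13683 genes (0.395%). The groups overlapped. The fitted log2 fold change at 20 nM was -0.20 (SE 0.094, edgeR adjusted p = 0.192, 2 SE reaching from -0.38 to -0.01), and without the surrogate variable it was 0.38 (edgeR adjusted p = 0.398). Without 20 nM replicate 3 it was -0.11 (edgeR adjusted p = 0.571), without 20 nM replicate 1 0.02 (edgeR adjusted p = 0.959), and without Ctrl. replicate 1 it passed, at -0.33 (edgeR adjusted p = 0.00838). No direction could be assigned to CDC42 at 20 nM, and at 10 nM its log2 fold change was -0.17 (SE 0.082, edgeR adjusted p = 0.375).

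RAC1, the GTPase that drives lamellipodia, was at 391, 373 and 387 CPM without mimic, 387, 381 and 376 CPM at 10 nM, and 393, 380 and 376 CPM at 20 nM. These values overlapped almost completely. The log2 fold change was -0.0035 (edgeR adjusted p = 0.978) at 10 nM and 0.02 (edgeR adjusted p = 0.833) at 20 nM. With 2 SE on either side the 20 nM value reached from -0.07 to 0.11, the narrowest such range among the 9 genes.

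**Figure D3:**
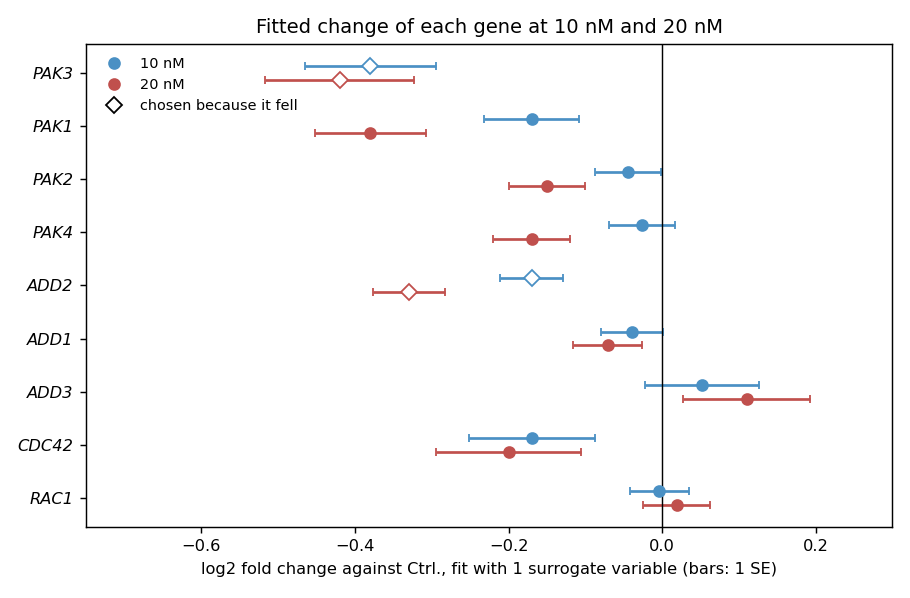
Fitted log2 fold change against Ctrl. (x axis) of the 9 genes at 10 nM and 20 nM, with bars of 1 SE; open diamonds mark PAK3 and ADD2, which were chosen because they were lower. PAK1 lies at -0.38 at 20 nM, near PAK3 at -0.42, while ADD1 and RAC1 lie at -0.07 and 0.02.

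Across the 9 genes, those whose 3 libraries all lay below the 3 controls were PAK1, PAK3 and ADD2 at 10 nM and PAK1, PAK2, PAK3 and ADD2 at 20 nM, and 0 lay above at either concentration. Of the relatives alone, this was 1 of 7 at 10 nM and 2 of 7 at 20 nM, where 9.90% and 13.7% of all genes lay below and 10.1% and 15.2% above.

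The level of PAK3 and ADD2 relative to their paralogues of the same library does not depend on library scaling. The log2 ratio of ADD2 to the mean of ADD1 and ADD3 was -0.73, -0.74 and -0.77 without mimic. It lay at -0.92, -0.97 and -0.84 with 10 nM and at -1.10, -1.07 and -0.95 with 20 nM of mimic. All mimic libraries lay below all controls, with differences of the means from Ctrl. of -0.16 at 10 nM and -0.30 at 20 nM. Against ADD1 alone these were -0.15 and -0.30, again without overlap. Against ADD3 alone they were -0.18 and -0.29, but both mimic groups overlapped with Ctrl., through replicate 3 at 10 nM (-0.13) or at 20 nM (-0.14), beside -0.07 to -0.15 in Ctrl. The share of ADD2 in the summed adducin level per kb was 10.9 ± 0.214% without mimic, then 9.93 ± 0.188% with 10 nM and 9.06 ± 0.135% with 20 nM, while the sum was 101 ± 1.03, 98.6 ± 3.24 and 96.8 ± 0.792 CPM per kb.

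The ratio of PAK3 to the mean of PAK1, PAK2 and PAK4 was less separated. Its values were -1.59, -1.75 and -1.40 without mimic, then -1.90, -1.97 and -1.74 with 10 nM, and -1.75, -1.73 and -1.82 with 20 nM of mimic, so both mimic groups overlapped with Ctrl. The means differed from Ctrl. by -0.30 at 10 nM and -0.19 at 20 nM. At 20 nM the difference was -0.05 against PAK1, -0.10 against PAK2 and -0.41 against PAK4, and PAK4 was the only paralogue against which all mimic libraries lay below all controls. The log2 ratios to PAK4 were -1.91, -1.98 and -1.74 in Ctrl. and -2.09, -2.19 and -2.59 at 20 nM. The last of these, and the mean ratio of -1.82, come from 20 nM replicate 3, where PAK4 was at 145 CPM, above every other library. PAK3 made up 7.91 ± 0.924% of the group I kinase level per kb without mimic, then 6.68 ± 0.695% with 10 nM and 7.46 ± 0.603% with 20 nM. The summed level of PAK1, PAK2 and PAK3 was 41.3 ± 0.277, 38.1 ± 1.48 and 34.1 ± 1.56 CPM per kb. The PAK3 shares of the 20 nM libraries, 6.92%, 7.33% and 8.11%, overlapped with those of Ctrl., 7.78%, 7.06% and 8.90%, whereas the ADD2 shares of the 3 groups did not overlap. These ratios carry no test, because PAK3 and ADD2 were chosen for being lower.

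**Figure D4:**
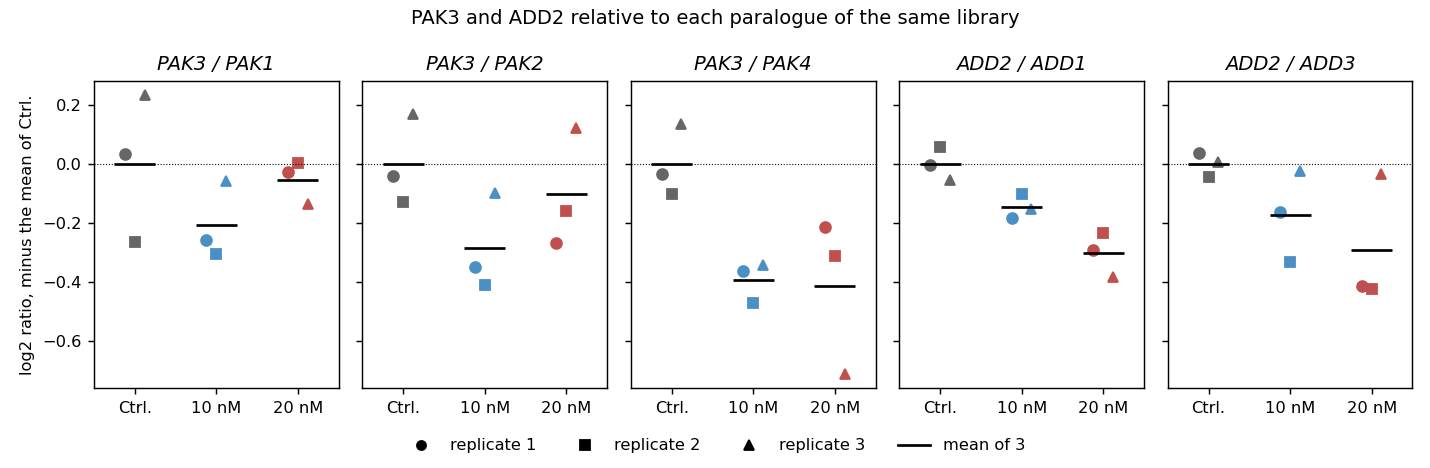
Log2 ratio of PAK3 to PAK1, PAK2 and PAK4, and of ADD2 to ADD1 and ADD3, in each library, with the mean of Ctrl. set to 0 on the y axis; symbols are replicates 1 to 3 and black lines are group means. ADD2 to ADD1 falls in separate steps (-0.15 at 10 nM and -0.30 at 20 nM), whereas PAK3 to PAK1 at 20 nM (-0.05) lies within the range of Ctrl.

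The wider actin machinery was described through 6 lists holding 166 genes with a test, 5 of which are described 1 by 1 below. At 10 nM 0 of the 166 were called, against 0.649% of all genes. At an unadjusted p under 0.05 by edgeR there were 26 (15.7%, against 13.9% of all genes), and DESeq2 called 3, all lower (1.81%, against 1.46% of all genes), both near the share of all genes. At 20 nM 36 were called (21.7%), 18 lower and 18 higher, against 13.9% of all genes, 6.08% lower and 7.80% higher. The median log2 fold change of the 166 genes at 20 nM was 0.01. With the replicate block beside the surrogate variable 21 were called at 10 nM (12.7%, against 10.5% of all genes) and 57 at 20 nM (34.3%, against 28.4%). Without the surrogate variable 0 were called at 10 nM and 17 at 20 nM (10.2%, against 6.38% of all genes). Leaving out 20 nM replicate 3 gave 1 at 10 nM (0.602%, against 1.07%) and 44 at 20 nM (26.5%, against 17.8%). At 20 nM 17 were called without 20 nM replicate 1 (10.2%, against 8.84%) and 21 without 20 nM replicate 2 (12.7%, against 7.19%). Between 20 nM and 10 nM 13 were called, 3 lower and 10 higher (7.83%, against 2.79% of all genes).

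Among 17 PAK partners and substrates, 3 were lower and 2 higher at 20 nM (17.6% and 11.8%, against 6.08% and 7.80% of all genes). PPM1F, a phosphatase that inactivates PAKs, fell from 112 ± 6.71 CPM in Ctrl. to 89.8 ± 7 CPM (n = 3 each), a log2 fold change by -0.41 (SE 0.062, edgeR adjusted p = 0.00105). SSH1, the slingshot phosphatase that reactivates cofilin, rose from 59.4 ± 3.05 to 89.7 ± 3.34 CPM, with every 20 nM library above every control and its log2 fold change at 0.56 (SE 0.055, edgeR adjusted p = 4.52e-05). LIMK1, the kinase downstream of PAK that inactivates cofilin, and CFL2, a cofilin, were also called, at -0.23 (edgeR adjusted p = 0.00759) and 0.47 (edgeR adjusted p = 0.000757). Both overlapped with Ctrl. in CPM because 20 nM replicate 3 went the other way, at 114 CPM for LIMK1 and 35.9 CPM for CFL2. The third lower gene was PPM1E, a relative of PPM1F.

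Of 37 regulators of RAC1 and CDC42, which load them with GTP, switch them off or hold them in the cytosol, 2 were lower and 4 higher at 20 nM (5.41% and 10.8%, against 6.08% and 7.80% of all genes). RACGAP1, a GTPase-activating protein of the dividing cell, fell from 138 ± 3.69 to 106 ± 3.94 CPM (log2 fold change -0.34, SE 0.049, edgeR adjusted p = 0.000612). ELMO1, which forms an exchange factor for RAC1 together with DOCK1, rose from 71.7 ± 1.43 to 103 ± 5.79 CPM (log2 fold change 0.47, SE 0.050, edgeR adjusted p = 7.44e-05), and DOCK1 was among the other genes called higher. DOCK10, an exchange factor, was higher at 0.32 (edgeR adjusted p = 0.00575) and DOCK9, which acts on CDC42, lower at -0.36 (edgeR adjusted p = 0.0261), the latter with overlapping groups. The fourth higher gene was FGD4, a CDC42 exchange factor.

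Of 41 effectors and members of the Arp2/3 machinery, which nucleates branched actin, 3 were lower and 5 higher (7.32% and 12.2%, against the same 6.08% and 7.80%). WASF3, a WAVE protein that passes the signal of RAC1 to Arp2/3, rose from 65.1 ± 0.665 CPM in Ctrl. to 91.4 ± 4.89 CPM at 20 nM (log2 fold change 0.54, SE 0.047, edgeR adjusted p = 2.41e-05). A pair of scaffold proteins of the same family went opposite ways: IQGAP2 was higher at 0.78 (SE 0.11, edgeR adjusted p = 0.000749) and IQGAP3 lower at -0.37 (SE 0.064, edgeR adjusted p = 0.00272). CDC42SE1, a small CDC42-binding protein, was lower at -0.16 (edgeR adjusted p = 0.0295), with every 20 nM library below every control. The remaining 4 were BRK1, lower, and WASL, CDC42SE2 and ARPC4, higher.

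The spectrin membrane skeleton, to which adducins belong, had 5 lower genes and 1 higher among 24 tested (20.8% and 4.17%, against 6.08% and 7.80% of all genes), with a median log2 fold change of -0.04 over the list. ANK3, the ankyrin that anchors spectrin and channels at the axon initial segment, fell from 10.2 ± 1.31 to 6.18 ± 0.280 CPM at 20 nM (log2 fold change -0.75, SE 0.14, edgeR adjusted p = 0.00429). TMOD1, which caps the slow-growing ends of actin filaments, fell from 379 ± 2.28 to 285 ± 37.1 CPM (log2 fold change -0.28, SE 0.046, edgeR adjusted p = 0.00158). The other lower genes were SPTB, TMOD2 and TPM4. TPM1, a tropomyosin, was called higher at 0.20 (edgeR adjusted p = 0.0415) but overlapped with Ctrl.

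Among 32 linkers and cappers of the actin cortex, 4 were lower and 4 higher (12.5% each, against 6.08% and 7.80% of all genes). RDX, a protein of the ezrin family that ties actin to the membrane, rose from 45.5 ± 4.80 to 74.7 ± 11.1 CPM at 20 nM (log2 fold change 0.82, SE 0.092, edgeR adjusted p = 0.000126). MARCKSL1, which binds actin at the inner membrane, fell from 583 ± 6.77 to 490.3 ± 40.2 CPM (log2 fold change -0.33, SE 0.046, edgeR adjusted p = 0.00061). DIAPH1, a formin that elongates filaments, was lower at -0.26 (edgeR adjusted p = 0.00334). TWF1, a twinfilin that binds actin monomers, was called higher at 0.31 (edgeR adjusted p = 0.0141) with overlapping groups. The remaining 4 were MARCKS and MYH10, lower, and FLNC and VCL, higher.

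**Figure D5:**
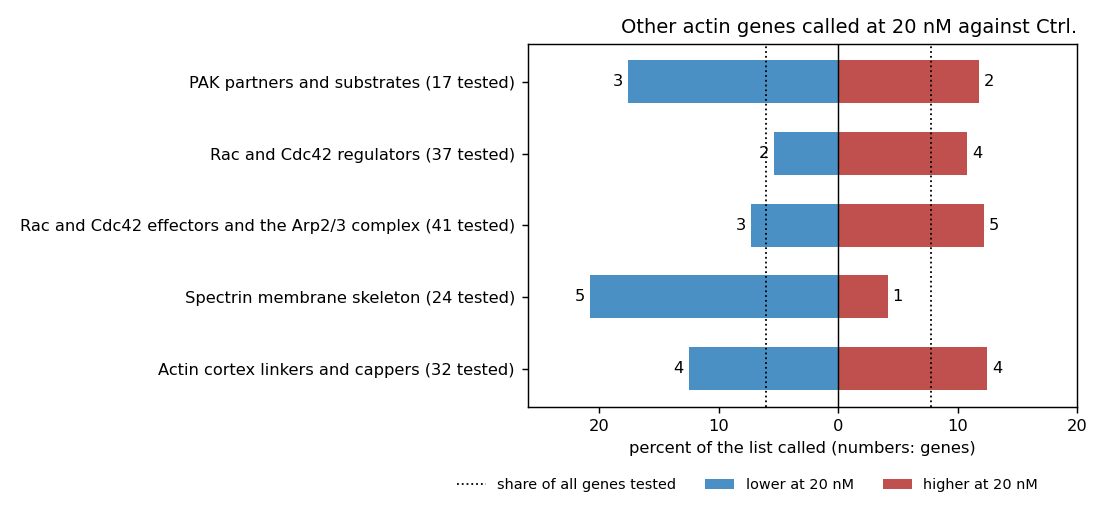
Percent of each of 5 lists called lower (left, blue) or higher (right, red) at 20 nM against Ctrl. on the x axis, with the number of genes beside each bar and dotted lines at the share of all genes (6.08% lower and 7.80% higher). The spectrin list has 5 lower genes and 1 higher, and the linkers and cappers 4 of each.

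The calls of PPM1F, SSH1, RACGAP1, ELMO1, WASF3, IQGAP2, TMOD1, ANK3, MARCKSL1 and RDX held under all 17 alternatives. Those of CFL2, DIAPH1 and IQGAP3 were lost without the surrogate variable (edgeR adjusted p = 0.283, 0.16 and 0.0636). With the replicate block in its place the calls of CFL2 (log2 fold change 0.24, edgeR adjusted p = 0.262), DIAPH1 (-0.17, 0.0951), LIMK1 (-0.065, 0.658), DOCK9 (-0.20, 0.0755), TPM1 (0.06, 0.597) and TWF1 (0.12, 0.583) were lost. Without 20 nM replicate 1 the calls of LIMK1, DOCK9, DOCK10, CDC42SE1, TPM1 and TWF1 were lost (edgeR adjusted p between 0.0625 for DOCK10 and 0.324 for TPM1), and without 20 nM replicate 2 those of LIMK1, DOCK9, CDC42SE1, TPM1 and TWF1 (edgeR adjusted p between 0.0607 for LIMK1 and 0.117 for TWF1). All of these were also lost without the surrogate variable. Without Ctrl. replicate 3 the calls of DOCK9, CDC42SE1 and TPM1 were lost, and without Ctrl. replicate 1 or Ctrl. replicate 2 those of CDC42SE1 and TPM1. TPM1 also lost its call without 10 nM replicate 2 or 20 nM replicate 3, and CDC42SE1 passed in 11 and TPM1 in 7 of the 17.

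The genes whose log2 CPM ran most like that of PAK3 over the 9 libraries were OR6D1P (Pearson r = 0.957), KALRN (0.946), CLCN5 (0.945), PRIM1 (0.938) and AKIRIN1 (0.933), out of 13630 genes with a mean of at least 1 CPM. For ADD2 they were SMARCC1 (0.988), SMAP1 (0.981), KIDINS220 (0.980), OPN3 (0.979) and NAP1L4 (0.978). All 10 had negative fitted log2 fold changes at both concentrations, from -0.11 for KALRN at 10 nM to -0.50 for SMAP1 at 20 nM. KALRN, an exchange factor for RAC1 in neurons, was at 91.5 ± 4.61, 85.4 ± 0.632 and 84.9 ± 2.22 CPM in Ctrl., 10 nM and 20 nM, and KIDINS220 at 355 ± 7.35, 311 ± 6.72 and 269 ± 4.74 CPM. These correlations are over libraries of 3 groups, which share the group differences, and are a description of 9 points.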

How the data were processed

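Polyadenylated RNA of 9 SH-Sy5y libraries (3 each of Ctrl., 10 nM and 20 nM) was analysed. Per the study's methods, the authors mapped and counted reads with salmon on GRCh38.p13, summed the estimated counts by gene symbol and removed low genes. The deposited estimated counts (14943 genes, 88.8% of values not whole) were rounded to whole numbers. The deposited tables of the authors' own comparisons hold fold changes and p-values and were not used, nor was a matrix already corrected for surrogate variables.

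Genes were tested with edgeR 4.0.16 (R 4.3.3), quasi-likelihood, TMM scaling, all 9 libraries in 1 fit and 1 surrogate variable (sva 3.50.0 on log2 CPM with a prior count of 2). The number of surrogate variables the authors used is not given in the sources used here. P-values were two-sided and adjusted by Benjamini-Hochberg over 14943 genes at a threshold of 0.05. CPM values carry TMM scaling but no correction for the surrogate variable, so they can differ in direction from the fit. The fit was also run on simulated counts that held no outlying library and no hidden factor. That run cannot show how the surrogate variable acts on the outlying library of these data. The study's methods do not state whether reads were counted with strand information. Counts made without it cannot separate overlapping genes.

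The reported tests held no replicate block and so were not paired. Deviations from the group mean correlated between same-numbered libraries of Ctrl. and mimic at 0.142 to 0.185 (10 nM) and 0.107 to 0.116 (20 nM). A block for the replicate number was therefore fitted as an alternative. Blocked values stand beside many of the results they change, and others are given in the last section. Alternatives were scaling, filter, surrogate variables, block, DESeq2 1.42.0 and leaving out each library.

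UTRs of at least 50 bases came from GENCODE 44. Of the 14943 genes, 14105 were found in that annotation through identifiers and 768 through symbols, and 70 were not found. A UTR of this length was annotated for 13775 genes. Of the 6 lists, 1 is not reported here beyond its part in the totals. The 9 genes and the 6 lists were chosen with earlier results of these data known. Named from each list were up to 2 lower and 2 higher genes with the smallest adjusted p at 20 nM (mean level 1 CPM or more), and the 5 genes most correlated with PAK3 and with ADD2. The other genes given by name from the lists, with no values, were chosen after their values were seen.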

Additional observations from a re-analysis of the deposited data

How the results depend on the processing

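Directions and calls were recomputed under 17 alternatives. For the 7 relatives over 3 comparisons, 307 of 357 recomputed values kept direction and side of the threshold, 8 lost the call, 9 gained it and 33 changed sign. For PAK3 and ADD2, 99 of 102 kept their sign: the range was -0.46 to -0.29 (10 nM) and -0.49 to -0.32 (20 nM) for PAK3, and -0.19 to -0.15 and -0.35 to -0.32 for ADD2. Of 374 values of the list genes, 43 lost the call and 0 changed sign. The causes of the changes below were not tested.

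Genes called at 10 nM (97 as reported) were 5 with no surrogate variable, 3 with the replicate block in its place, 1566 with the replicate block and 1 surrogate variable, 218 with DESeq2 and 34 to 160 leaving out 1 library. At 20 nM (2074) they were 954 with no surrogate variable, 4244 with both and 1074 to 2656 leaving out 1 library. Between the concentrations (417) they were 67, 124 with the block alone, 1524 with both and 111 to 462. For that pair of groups same-numbered libraries correlated at 0.174, 0.0288 and 0.176, and differently numbered ones at -0.17 to 0.0321. What the replicate numbers mark is not stated in the sources used here. Relatives called with block and surrogate variable were 1 at 10 nM (0 as reported) and 2 between the concentrations (0), against 10.5% and 10.2% of all genes. At 20 nM (2) they were 1 with none or 2 surrogate variables, against 6.38% and 13.1% of all genes. Leaving out 1 library gave 1 to 3 at 20 nM, against 7.19% to 17.8% of all genes. Other actin genes called at 10 nM (0) were 21 with both (12.7%, against 10.5% of all genes) and 3 with DESeq2 (1.81%, against 1.46%). They were 1 among genes of at least 1 CPM (0.613%, against 0.826%) and 0 to 1 leaving out 1 library (at most 0.602%, against 0.228% to 1.07%). At 20 nM (36) they were 17 with no surrogate variable (10.2%, against 6.38% of all genes) and 57 with both (34.3%, against 28.4%). Leaving out 1 library gave 17 to 44 (10.2% to 26.5%, against 7.19% to 17.8%). Between the concentrations (13) they were 2 with no surrogate variable (1.2%, against 0.448%) and 5 with the block alone (3.01%, against 0.83%). With both they were 31 (18.7%, against 10.2%), and leaving out 1 library 4 to 15 (2.41% to 9.04%, against 0.743% to 3.09%). The difference of PAK3 from its paralogues at 20 nM was -0.051 against PAK1 alone and -0.41 against PAK4 alone, the latter with PAK4 at 145 CPM in 20 nM replicate 3.

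Signs changed as follows, with no surrogate variable and then the block alone: PAK4 0.033 and 0.033 at 10 nM, 0.075 and 0.058 at 20 nM, 0.042 and 0.026 between the concentrations; ADD3 -0.03 and -0.041 at 20 nM, -0.042 and -0.044 between them. CDC42 was at 0.38 and 0.32 at 20 nM and at 0.44 and 0.35 between the concentrations, there also 0.066 with block and surrogate variable. RAC1 was at -0.0019 in both at 20 nM. PAK3 between the concentrations was 0.00035 with the block alone and 0.033 with both. Leaving out 1 library, signs changed within -0.05 to 0.021 (PAK4), -0.058 to 0.11 (ADD3) and -0.023 to 0.0082 (RAC1) at 10 nM, within -0.33 to 0.015 (CDC42) and -0.015 to 0.033 (RAC1) at 20 nM, and between the concentrations within -0.073 to 0.0099 (PAK3), -0.0075 to 0.17 (ADD3), -0.087 to 0.13 (CDC42) and -0.0069 to 0.033 (RAC1). The 3 libraries per group limit how small a change can be called.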
